A study of Mus musculus with 12 samples.

Results

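Interferon-stimulated genes are those whose transcripts rise when a cell meets interferon. In mouse fat cell lines 39 of them were followed, a list of antiviral effectors, sensors, transcription factors and GTPases. The members and the other gene lists were chosen with earlier results of these data known, so their counts beside all tested genes are descriptions. A member was represented by the probe set that carried its symbol alone, and by the one with the highest mean signal where it had several. Of the 39 listed genes, 37 had such a probe set, among 18193 genes named on the array, and 36 were bright enough to be tested, among 13752 tested genes. Oas3 was too dim to be tested. Isg15 had only a probe set that carries several symbols, and Ifi44 had none under its own symbol, so neither is analysed here.

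Total RNA was measured on 12 Affymetrix arrays, with 3 arrays in each of 4 groups of cultured mouse cells. White preadipocytes were cells of 3T3-L1, an established line of white-type fat cell precursors, harvested at day 0, which was 2 days after the cultures became confluent. White adipocytes were 3T3-L1 cells harvested at day 10 after 3 days of induction with insulin at 1 µg/mL, dexamethasone at 1 µM and the phosphodiesterase inhibitor IBMX at 0.5 mM, then 2 days in which insulin alone was kept at its dose, then plain growth medium. Brown preadipocytes were brown fat cells at day 0, again 2 days after confluence, and brown adipocytes were the same kind of cells at day 8. Their induction also lasted 3 days, with T3, a thyroid hormone, at 1 nM, insulin at 20 nM, dexamethasone at 1 µM, indomethacin at 125 µM and IBMX at 0.5 mM, and T3 and insulin were kept in the medium afterwards. The labels name no interferon and no infection in any group, and they give neither the origin nor the number of clones of the brown line. Both preadipocyte groups were harvested at day 0 without induction, so by their labels they differed in line. Their adipocyte markers differed too, as given below, so line and state of differentiation cannot be told apart between them. Between adipocytes, and between the changes of the lines, the line, the induction mix and the harvest day differed together and cannot be told apart. Nothing in the labels says that the 3 arrays of a group came from separate cultures, so the p-values measure the spread between these arrays, which may be technical.

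Type I interferons bind the receptor chains Ifnar1 and Ifnar2, whose kinases Jak1 and Tyk2 activate Stat2. Together with Irf9 it acts in a complex that binds the interferon-stimulated response element, a promoter sequence shared by many of the genes described here, while interferon-γ acts through Ifngr1 and Ifngr2 on a different sequence, the gamma-activated site. The induced proteins detect viral nucleic acid, block viral entry, translation and release, and feed back on the pathway itself. Fat cells and their precursors carry both kinds of receptor, and interferons are known to restrain the differentiation of preadipocytes in culture.

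The brown preadipocytes stood far above the other groups. All 3 brown preadipocyte arrays lay above the other 9 arrays for 34 of the 37 members with a probe set, and 12.9% of all tested genes had that arrangement. They lay below the other 9 for 0 members, against 6.66% of tested genes. The exceptions were Irf1, Gbp2 and the dim Oas3. White preadipocytes were at the other end: their 3 arrays lay below the other 9 for 22 members, against 14.1% of tested genes. In 26 members the group means ran in a single order, with brown preadipocytes highest, then brown adipocytes, then white adipocytes, then white preadipocytes, against 3.9% of tested genes. In 15 of the 26 all 3 steps of that order passed the test described below (0.494% of tested genes); in the others at least 1 pair of neighbouring groups did not differ beyond the threshold.

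**Figure D1:**
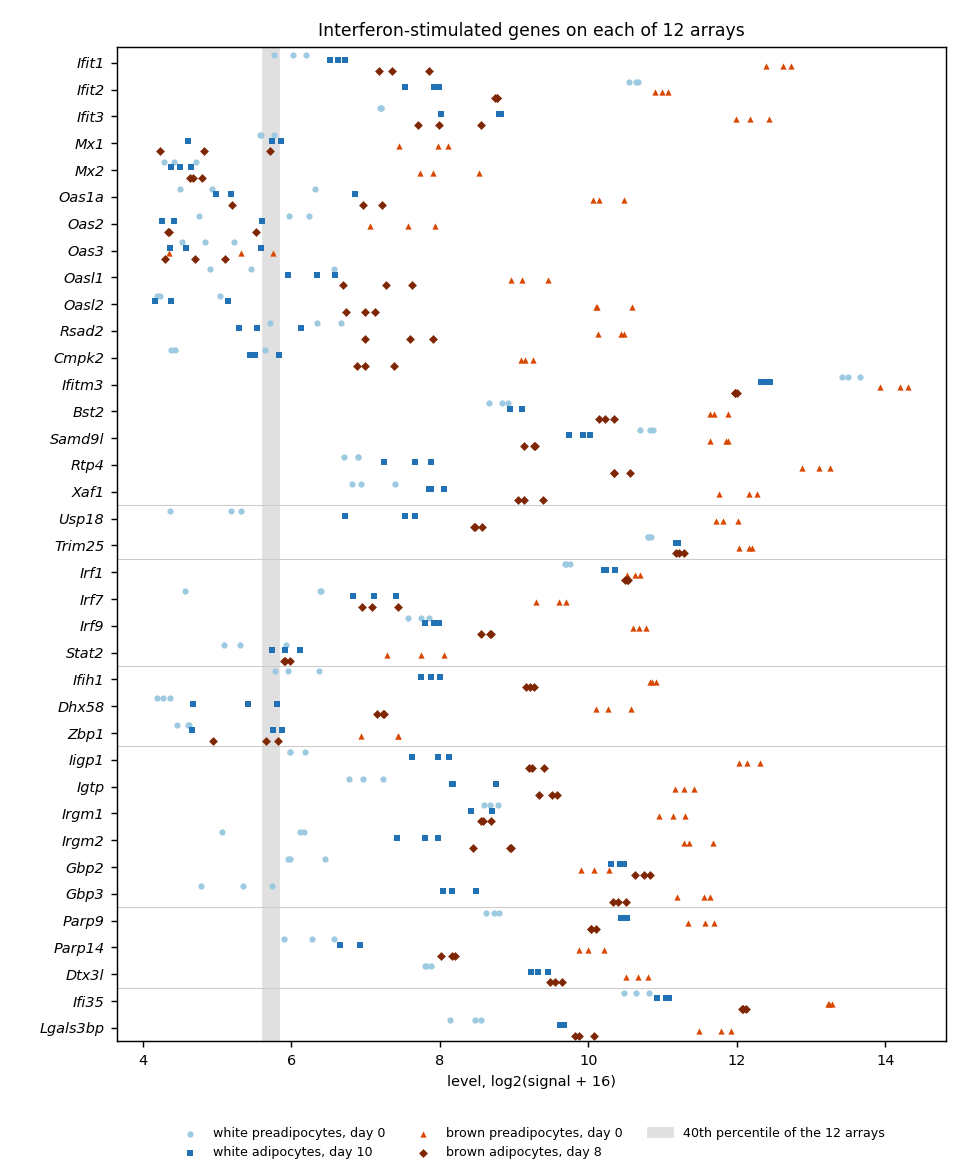
Level of each of 37 interferon-stimulated genes as log2(signal + 16) on each of 12 arrays, by group, with genes ordered by role and the shaded band marking the 40th percentile of the arrays, 32.9 to 41.2 in signal. The brown preadipocyte triangles lie to the right of every other array for 34 genes, and the exceptions are Irf1, Gbp2 and Oas3.

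Signals are given in the array's own units, in the order of replicates 1, 2 and 3, and changes are differences of group means of log2(signal + 16) from a limma fit, with Benjamini-Hochberg adjusted p-values over all tested genes. Adding 16 makes the change of a dim gene smaller on this scale than its ratio of signals. A signal is called dim where it was under the 40th percentile of its array, which lay between 32.9 and 41.2. Signals of different genes come from different probes and are not compared with each other. In bulk RNA such as this, fewer cells that express a gene and less of its RNA per cell cannot be told apart.

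The cells and arrays were checked against markers. The 8 adipocyte markers summed to 49387 to 58286 on the brown preadipocyte arrays, with Adipoq at 18695 ± 2319 (mean ± SD, n = 3), and to 9860 to 10509 on the white preadipocyte arrays, with Adipoq at 31.9 ± 16.4, so the cells labelled brown preadipocytes already carried adipocyte transcripts. That sum was 120785 to 136061 in white and 93308 to 96466 in brown adipocytes. The 5 brown adipocyte markers summed to 42.4 to 62.4 in white and 187 to 214 in brown preadipocytes. They summed to 5852 to 7182 in white and 25126 to 27745 in brown adipocytes. All 3 arrays were above the 40th percentile for 2 of these 5 in white adipocytes, 2 in brown preadipocytes and 5 in brown adipocytes. Ucp1 among them, which defines brown fat, was dim in the other groups and 382 ± 74.5 in brown adipocytes. The 10 macrophage markers summed to 538 to 639.6 in brown preadipocytes, below the 1529 to 1724 of white preadipocytes and the 1038 to 1133 of white adipocytes and above the 486 to 528 of brown adipocytes. Of these 10, Cd68, Csf1r, Lyz2 and Cd14 were above the 40th percentile on all 3 brown preadipocyte arrays, while Ptprc, Itgam and Cd163 were below it on all 3. Cd68 was higher in brown than in white preadipocytes by 0.87 (adjusted p = 0.0197), while Lyz2 had −3.82 (adjusted p = 3.48e-07) and Cd14 had −1.02 (adjusted p = 3.91e-05). Of the dendritic cell, lymphocyte and endothelial markers 0 were above the 40th percentile on all 3 of them. The preadipocyte or fibroblast markers summed to 15896 to 16987 in brown preadipocytes and 663 to 754 in brown adipocytes, and to 21874 to 24129 in white preadipocytes and 10803 to 12267 in white adipocytes. Pdgfra and Col1a1, stromal markers, had differences in change of −5.42 (adjusted p = 2.73e-09) and −5.26 (adjusted p = 1.78e-08). The ratio of the 3′ to the 5′ actin control probe set, a reading of RNA integrity, was 1.36 to 1.56 on preadipocyte and 2.08 to 2.48 on adipocyte arrays. The same ratio for the Gapdh control showed no such shift, at 0.75 to 0.90 on preadipocyte and 0.80 to 0.84 on adipocyte arrays. The adipocyte and preadipocyte markers and the actin ratio moved with differentiation in both lines. Their part in the changes given here was not tested, nor was that of the macrophage markers. Arrays of a group correlated at 0.978 to 0.982 and arrays of different groups at 0.885 to 0.935.

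In the comparison of brown with white preadipocytes, 36 of 36 tested members were higher in the brown line (31.3% of all tested genes were called higher), 32 of them by at least 2-fold (11.6% of all tested genes). Lower calls numbered 0 (23.8% of tested genes, or 6.36% at 2-fold or more). Mx2 passed the filter on low signal through its brown preadipocyte arrays alone. Mx1, Oas2 and Zbp1 had too few arrays above the 40th percentile in the other groups to pass without their brown preadipocyte arrays. The place of these genes in that count followed from the filter. With no filter 36 of 37 members were called higher. The median difference over the 37 members was 3.58 on the log2 scale, against 0.051 over all named genes. It ranged from 0.28 for the untested Oas3, and 0.38 for Ifit2 among tested members, to 6.89 for Usp18. Usp18 is among 6 members that were dim on all 3 white preadipocyte arrays, whose fitted differences depend on the added 16. Counting white preadipocytes at the 40th percentile of each array where the gene was below it, these 6 were at least 4.14-fold (Zbp1) to at least 109.9-fold (Usp18) higher in brown preadipocytes, and the median of the 37 members with them at their bounds was 3.53. Over brown differentiation, 34 of the 36 tested members fell (31.6% of all tested genes were called lower), 33 of them by at least 2-fold (12.7%), and 1 rose, Gbp2 (27.2% of tested genes were called higher), by less than 2-fold (9.78% rose by 2-fold or more). Irf1 did not pass. Without Mx2, whose fall also followed from the filter, 33 of 35 fell, a count that still holds Mx1, Oas2 and Zbp1. The median change was −2.16 against −0.011 over all named genes.

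White differentiation gave smaller changes, mostly upward. Of the 36 tested members, 23 rose (30.1% of all tested genes were called higher), 13 of them by at least 2-fold (13.3%), and 3 fell, Ifit2, Ifitm3 and Samd9l (31.2% of tested genes were called lower). The other 10 did not pass. The median change of the 37 members was 0.63, against 0.036 over all named genes. Scaling the arrays to their hybridization controls in place of the trimmed mean left 16 members called higher and 5 lower, with a median of 0.40. That scaling moved the median of all tested genes by −0.25, and the split of all calls from 49.1% to 34.3% upward.

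The difference between the lines in their response to differentiation was tested directly. The change in the brown line was lower than that in the white line for 35 of 36 tested members (27.5% of all tested genes were called lower) and higher for 1, Ifit2 (23.6% called higher, 9.93% by 2-fold or more). Without Mx2 it was lower for 34 of 35, a count that still holds Mx1, Oas2 and Zbp1. Its median over the 37 members was −2.87, against −0.049 over all named genes. In 21 members a rise in the white line stood beside a fall in the brown line (4.9% of tested genes), 3 members fell in both (18% of tested genes), and Gbp2 rose in both (16.8% of tested genes). These comparisons share groups: the brown preadipocyte arrays enter the brown change, the difference in change and the comparison of preadipocytes, so the counts are not independent of each other.

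**Figure D2:**
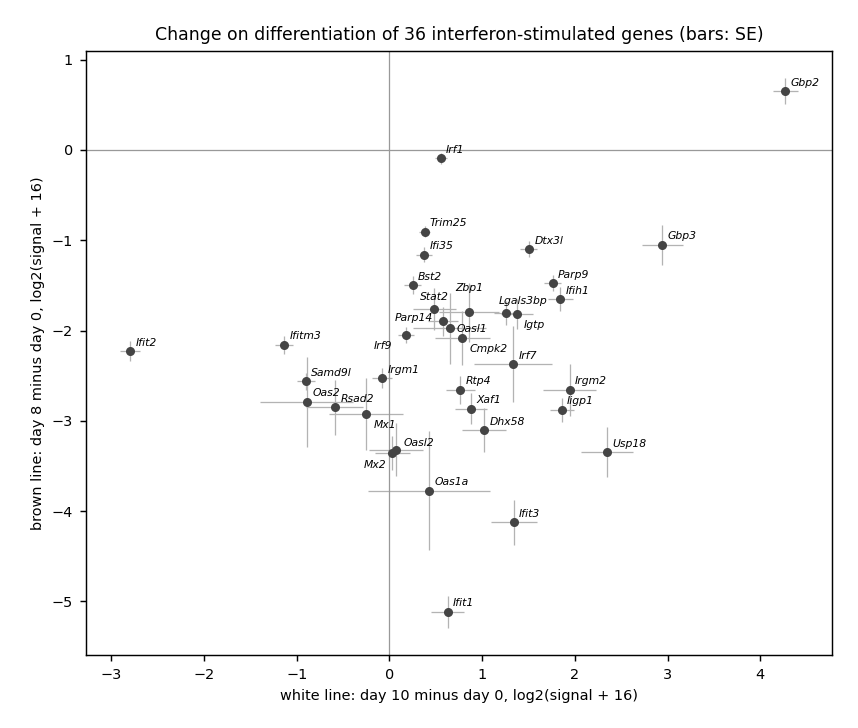
Change on differentiation of 36 tested interferon-stimulated genes, in the white line on the horizontal axis and in the brown line on the vertical axis, each as a difference of group means of log2(signal + 16) with its SE. Most points lie right of 0 and below 0; Ifit2, Ifitm3 and Samd9l fell in both lines, and Gbp2 at 4.27 and 0.65 rose in both.

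After differentiation the lines were closer. Between brown and white adipocytes, 20 of the 36 tested members were higher in brown adipocytes (30.1% of all tested genes were called higher), 15 of them by at least 2-fold (11.9%), and 3 were lower, Ifitm3, Samd9l and Parp9 (29.5% called lower). The remaining 13 did not pass. The median difference over the 37 members was 0.79, against −0.013 over all named genes. In the 31 members whose brown adipocyte arrays were all above the 40th percentile, brown adipocytes kept from 2.67% (Ifit1) to 157% (Gbp2) of the brown preadipocyte signal, with a median of 22.2%.

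**Figure D3:**
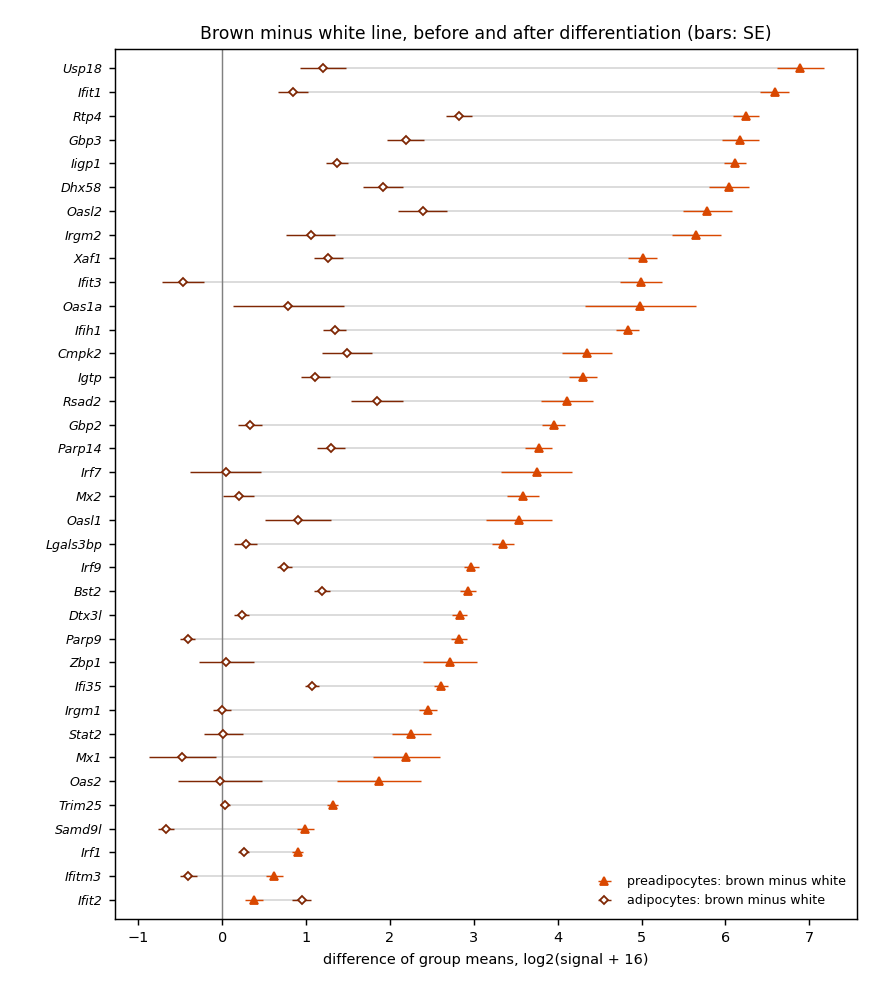
Difference between the lines, brown minus white, for 36 tested interferon-stimulated genes, among preadipocytes (filled triangles) and among adipocytes (open diamonds), as log2(signal + 16) with its SE, ordered by the preadipocyte difference. The preadipocyte differences run from 0.38 for Ifit2 to 6.89 for Usp18, and Ifit2 is the gene at the bottom whose adipocyte difference, 0.95, is the larger one.

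Among the antiviral effectors, the Ifit proteins bind viral RNA or the translation machinery and so hold back viral protein synthesis. Ifit1 had signals of 57.5, 49.0 and 38.5 in white preadipocytes, 75.4, 83.1 and 89.8 in white adipocytes, 6798, 6282 and 5341 in brown preadipocytes and 129, 215 and 148 in brown adipocytes. Brown preadipocytes were high on all 3 arrays, and the other groups lay in a narrow low range, in which no group overlapped another. Ifit1 differed between the preadipocytes by 6.58 (SE 0.175, adjusted p = 1.63e-09) and its change over brown differentiation was −5.12 (SE 0.175, adjusted p = 5.03e-09). Its rise in the white line was 0.63 (SE 0.175, adjusted p = 0.00998), a call that was lost with hybridization-control scaling (0.40, adjusted p = 0.0739).

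Ifit3, its partner in binding capped viral RNA, read 132, 132 and 131 in white preadipocytes and 437, 244 and 429 in white adipocytes. In the brown line it read 5531, 4605 and 4062 before and 237, 358 and 192 after differentiation. The adipocyte groups of the lines overlapped, and brown preadipocytes were again high on all 3 arrays. The rise in the white line was 1.34 (SE 0.25, adjusted p = 0.000833) and the change in the brown line was −4.12 (SE 0.25, adjusted p = 2.61e-07). Brown and white adipocytes differed by −0.47 (adjusted p = 0.135), which passed without white adipocyte replicate 2 (−0.73, adjusted p = 0.0171) or without brown adipocyte replicate 2 (−0.70, adjusted p = 0.0295).

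Ifit2, the family member that can promote apoptosis, lay next to Ifit3 with no protein-coding gene between them in the RefSeq annotation of GRCm38.p6, and its pattern was of another kind. It was high before differentiation in both lines, at 1608, 1475 and 1576 in white and 2143, 2029.9 and 1890.3 in brown preadipocytes. After differentiation it was low in both, at 238, 169 and 227 in white and 421, 421 and 412 in brown adipocytes. No array of one group overlapped another group. Ifit2 fell by 2.80 in the white line (adjusted p = 7.72e-09) and by 2.23 in the brown line (adjusted p = 5.97e-08), and the difference between these falls was 0.57 (SE 0.156, adjusted p = 0.0115). That difference did not pass with quantile normalization (0.44, adjusted p = 0.0511). The preadipocytes differed by 0.38 (adjusted p = 0.0149), a call lost with equal medians (0.099, adjusted p = 0.519), without white preadipocyte replicate 2 (0.34, adjusted p = 0.0506) and without brown preadipocyte replicate 1 (0.33, adjusted p = 0.0536).

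**Figure D4:**
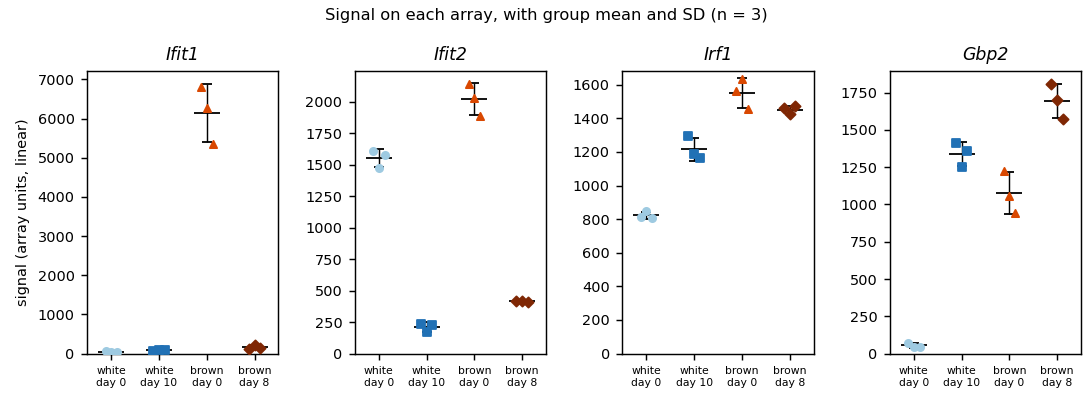
Linear signal of Ifit1, Ifit2, Irf1 and Gbp2 on each of 12 arrays, with the mean and SD of the 3 arrays in each group. Ifit1 is high in brown preadipocytes alone, Ifit2 is high in both preadipocyte groups, Irf1 is lowest in white preadipocytes, and Gbp2 is low in white preadipocytes and highest in brown adipocytes.

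The Mx proteins are dynamin-like GTPases that trap incoming viral particles. Mx1 read 260.1, 159 and 235 in brown preadipocytes and Mx2 read 354, 198 and 224. Outside the brown preadipocytes Mx2 was dim on all 9 arrays, and Mx1 lay at 2.74 to 41.9, close to or under the 40th percentile. The differences between the preadipocytes were 2.20 (SE 0.4, adjusted p = 0.00094) for Mx1 and 3.58 (SE 0.189, adjusted p = 1.48e-07) for Mx2, the latter at least 7.48-fold. Over white differentiation Mx1 had −0.25 (adjusted p = 0.62) and Mx2 0.031 (adjusted p = 0.9), and neither passed.

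The Oas enzymes make oligoadenylates that switch on the ribonuclease RNase L, and the Oasl proteins are related to them. Oasl1 restrains the translation of Irf7. Oas1a had 1418, 1118 and 1058 in brown preadipocytes and 20.7, 133 and 109 in brown adipocytes, and it was uneven in the white line, at 6.53, 14.6 and 63.5 before and 20.3, 99.6 and 15.8 after differentiation. Oasl2 went from 1525, 1093 and 1087 to 90.3, 124 and 111 in the brown line and was dim on all 6 white arrays. Brown adipocytes remained above white adipocytes in Oasl2 without overlap, by 2.39 (SE 0.293, adjusted p = 4.65e-05), or at least 2.87-fold.

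Oasl1, the direct neighbour of Oasl2, read 688, 535 and 483 in brown preadipocytes and 88.0, 139 and 182 in brown adipocytes. White preadipocytes had 79.6, 27.8 and 13.8 and white adipocytes 80.1, 65.0 and 46.1, and these groups overlapped. The white change of 0.65 (adjusted p = 0.181) passed without white preadipocyte replicate 1 (1.12, adjusted p = 0.0101). The adipocyte difference of 0.91 (adjusted p = 0.0707) passed without white preadipocyte replicate 1 (adjusted p = 0.0161) or 3 (adjusted p = 0.0389) and without brown adipocyte replicate 1 (1.16, adjusted p = 0.0421).

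Oas2 had 229, 117 and 174 in brown preadipocytes against 11.1, 46.4 and 59.3 in white preadipocytes, where replicate 1 was dim. It was dim on all 6 adipocyte arrays. The change in the brown line was −2.79 (SE 0.499, adjusted p = 0.000728), at least 4.27-fold. The white change of −0.89 (adjusted p = 0.15) passed when white preadipocyte replicate 1 (−1.34, adjusted p = 0.039) or replicate 1 of the white adipocytes (−1.31, adjusted p = 0.0457) was left out. The difference in change, −1.90 (adjusted p = 0.0459), did not pass when white preadipocyte replicate 1 or 2, white adipocyte replicate 1 or 3, brown preadipocyte replicate 1 or 3, or brown adipocyte replicate 1 or 3 was left out (adjusted p = 0.0517 to 0.0992). Oas3, beside Oas2 in the genome, had 37.7, 4.45 and 24.0 in brown preadipocytes and was dim on all 12 arrays.

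Rsad2, also called viperin, makes a nucleotide that ends viral RNA chains, and Cmpk2, its direct neighbour, is a mitochondrial nucleotide kinase. Rsad2 read 1417, 1367 and 1105 in brown preadipocytes and 177, 223 and 112 in brown adipocytes, against 36.3, 85.7 and 65.6 in white preadipocytes and 23.1, 54.3 and 30.5 in white adipocytes. Cmpk2 read 593, 552 and 530.3 and then 111, 151 and 102 in the brown line, against 33.8, 5.49 and 4.70 and then 41.0, 27.6 and 29.6 in the white line. Both genes were ordered the same way in the brown line, with no overlap of its groups or with the white arrays. Their differences between preadipocytes were 4.11 and 4.35 (for Cmpk2, dim in white preadipocytes, at least 16.7-fold), and those between adipocytes 1.84 (adjusted p = 0.00042) and 1.49 (adjusted p = 0.00141). Between adipocytes their further probe sets had 0.17 and 2.02 for Rsad2 and 0.57 for Cmpk2.

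In the white line the values of both neighbours depended on the setting. Rsad2 had −0.59 (adjusted p = 0.125), with 0.16 and −0.029 from its further probe sets, a change which passed with hybridization-control scaling (−0.78, adjusted p = 0.042), without white preadipocyte replicate 1 (−0.86, adjusted p = 0.0351) and without white adipocyte replicate 2 (−0.83, adjusted p = 0.0465). Cmpk2 rose by 0.79 (adjusted p = 0.0413), with signals near the 40th percentile, and its second probe set had −0.37. Without white preadipocyte replicate 1 the rise of Cmpk2 was 1.20 (adjusted p = 0.000154). The call was lost without white preadipocyte replicate 2 or 3, any 1 white adipocyte array, any 1 brown preadipocyte array or brown adipocyte replicate 1 (adjusted p = 0.0534 to 0.149).

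Ifitm3, which blocks the fusion of viruses in endosomes, was abundant in every group. It read 10881, 12971 and 11527 in white preadipocytes, 5555, 5354 and 5132 in white adipocytes, 20259, 18704 and 15534 in brown preadipocytes and 4010.1, 4008 and 4096 in brown adipocytes. Both preadipocyte groups stood above both adipocyte groups, and no groups overlapped. It fell by 1.14 in the white line (adjusted p = 3.45e-06) and by 2.16 in the brown line (adjusted p = 4.02e-08). Brown adipocytes differed from white ones by −0.40 (adjusted p = 0.00557), which did not pass with hybridization-control scaling (−0.25, adjusted p = 0.0763).

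Samd9l, an antiviral factor that slows protein synthesis, followed the same order. Its signals were 1645, 1857 and 1799 in white preadipocytes and 1024, 957 and 835 in white adipocytes, 3749, 3686 and 3160.3 in brown preadipocytes and 603, 545 and 601 in brown adipocytes. Brown preadipocytes were highest and brown adipocytes lowest, again with no overlap. The changes were −0.90 in the white and −2.56 in the brown line, a difference of −1.66 (SE 0.138, adjusted p = 4.7e-06).

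Bst2, or tetherin, holds budding virus on the cell surface. It read 3740.2, 3169 and 3296 in brown preadipocytes and 1117, 1288 and 1182 in brown adipocytes, both above the white line, where all 6 arrays lay between 390.5 and 537. The brown change was −1.49 (SE 0.0951, adjusted p = 3.76e-07) and the adipocyte difference 1.18 (SE 0.0951, adjusted p = 1.97e-06). Its white rise of 0.25 (adjusted p = 0.0428) did not hold up: it was −0.021 with hybridization-control scaling and 0.13 with equal medians, and it failed when replicate 1 or 3 of the white preadipocytes, 1 or 3 of the white adipocytes, 3 of the brown preadipocytes or 3 of the brown adipocytes was left out (adjusted p = 0.0514 to 0.151).

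Rtp4, a chaperone of membrane receptors with antiviral activity, had one of the widest gaps between the lines. Its signals were 88.1, 103 and 104 and 219, 187 and 137 in the white line before and after differentiation, and 9766, 8787 and 7490.0 and 1286, 1500.2 and 1291 in the brown line. Every brown array lay above every white array. The differences were 6.25 (SE 0.157, adjusted p = 1.06e-09) between preadipocytes and 2.82 (SE 0.157, adjusted p = 1.33e-07) between adipocytes, the latter the largest of the 36 tested members. Xaf1, which promotes apoptosis, had the same arrangement, with 4915, 4566 and 3443 in brown preadipocytes, 517, 657 and 546 in brown adipocytes and at most 248.9 in the white line. Its adipocyte difference was 1.27, or 0.096 from its second probe set, whose means there were 39.2 and 44.3. Of the 16 tested antiviral effectors as a group, 6 rose and 3 fell over white differentiation (30.1% and 31.2% of all tested genes), 16 fell over brown differentiation (31.6%), 8 were higher and 2 lower in brown than in white adipocytes (30.1% and 29.5%), and 16 were higher in brown preadipocytes (31.3%). Their count of white rises was close to the share of all tested genes. The counts for the brown change and for the preadipocytes hold Mx1, Mx2 and Oas2, whose place in them followed from the filter.

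Usp18 and Trim25 stand for the conjugation of Isg15, a ubiquitin-like protein. Usp18 removes Isg15 from its targets and dampens signalling at Ifnar2. It was dim on the white preadipocyte arrays, at 20.4, 24.0 and 4.53, and read 187, 168 and 89.1 in white adipocytes. In the brown line it read 4125, 3570.4 and 3358 and then 364, 341 and 336. The 4 groups did not overlap. Its difference between preadipocytes was 6.89 (SE 0.28, adjusted p = 2.44e-08), which is at least 109.9-fold, and it ran from 5.55 to 8.00 over the settings tried. It rose by 2.35 (SE 0.28, adjusted p = 3.33e-05) in the white line, at least 4.22-fold, fell by 3.35 in the brown line (adjusted p = 2.8e-06) and differed between the adipocytes by 1.20 (adjusted p = 0.00371), which did not pass with a pseudocount of 1 (1.29, adjusted p = 0.0527).

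Trim25, a ubiquitin ligase that acts on the RNA sensor RIG-I, was bright and tight in all groups. Its signals were 1779.7, 1770.4 and 1823 in white preadipocytes, 2316, 2351 and 2332 in white adipocytes, 4716, 4591 and 4154 in brown preadipocytes and 2299, 2478 and 2371 in brown adipocytes. Brown preadipocytes were high and white preadipocytes low, while the adipocyte groups overlapped and differed by 0.029 (adjusted p = 0.713), or 0.18 with hybridization-control scaling (adjusted p = 0.049) and −0.10 with equal medians. The white rise of 0.38 (adjusted p = 0.00035) was 0.10 with hybridization-control scaling (adjusted p = 0.248), and its further probe sets had 0.48 and −0.42 for that comparison.

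The transcription factors of the pathway were split. Irf9, the DNA-binding part of the complex with Stat2, read 1744, 1625 and 1545 in brown preadipocytes and 361, 393 and 398 in brown adipocytes. The white line had 215, 174 and 199 and 238, 208 and 225, which overlapped. Both brown groups stood above the white arrays, with differences of 2.97 (SE 0.0885, adjusted p = 2.92e-09) between preadipocytes and 0.74 (SE 0.0885, adjusted p = 3.86e-05) between adipocytes. The white change of 0.18 (adjusted p = 0.105) passed without white preadipocyte replicate 1 (0.24, adjusted p = 0.0472) and was −0.080 with hybridization-control scaling.

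Stat2 read 250.2, 198 and 139.9 in brown preadipocytes and at most 53.4 on the other 9 arrays. Its change over brown differentiation was −1.76 (SE 0.232, adjusted p = 8.41e-05), and the white change of 0.48 (adjusted p = 0.0989) passed without white preadipocyte replicate 3 (0.73, adjusted p = 0.0121). Irf7, the factor that amplifies the production of type I interferon, read 817, 760.0 and 612 in brown preadipocytes and 157, 120.4 and 108 in brown adipocytes. White adipocytes had 123, 154 and 97.4, and white preadipocytes had 68.1, 67.8 and 7.70, with replicate 3 apart from the others. Adipocytes of the lines overlapped in both genes. The rise of Irf7 in the white line, 1.33 (adjusted p = 0.019), was 0.73 without white preadipocyte replicate 3 and did not pass without white adipocyte replicate 2 (1.19, adjusted p = 0.0623).

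Irf1, which responds to interferon-γ and other signals, differed least between the brown groups among the tested members. Its signals were 814, 846 and 809 in white preadipocytes, 1295, 1187 and 1167 in white adipocytes, 1564, 1635 and 1457 in brown preadipocytes and 1459, 1425 and 1472 in brown adipocytes. The brown groups overlapped, and both lay above the white arrays. Its value over brown differentiation was −0.094 (SE 0.0646, adjusted p = 0.242), which did not pass, or −0.31 with hybridization-control scaling (adjusted p = 0.00397). It rose by 0.55 (SE 0.0646, adjusted p = 2.83e-05) in the white line, or 0.28 with hybridization-control scaling. The adipocyte difference of 0.25 (adjusted p = 0.00618) did not pass with equal medians (0.12, adjusted p = 0.146).

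Among the cytoplasmic sensors, Ifih1, or MDA5, which detects long double-stranded RNA, read 45.8, 67.1 and 38.8 in white preadipocytes, 220.2, 198 and 241 in white adipocytes, 1909, 1808 and 1843 in brown preadipocytes and 579.8, 599 and 557 in brown adipocytes. No groups overlapped. It rose by 1.84 (SE 0.134, adjusted p = 7.69e-07) in the white line and changed by −1.65 (SE 0.134, adjusted p = 2.26e-06) in the brown line. Brown adipocytes exceeded white ones by 1.34 (SE 0.134, adjusted p = 1.06e-05).

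Dhx58, or LGP2, which modulates the RNA sensors, was dim in white preadipocytes and read 1514, 1210.4 and 1085 in brown preadipocytes and 127, 134 and 136 in brown adipocytes. It differed between preadipocytes by 6.04 (SE 0.239, adjusted p = 2.03e-08), at least 37.6-fold for this probe set, and by 3.99 with the mean of its 3 probe sets. Over all settings it ran from 3.99 to 8.19. Its white rise of 1.02 (adjusted p = 0.00363) was 0.031 with that mean (adjusted p = 0.874), since the other probe sets had 0.00066 and −0.60. Zbp1, a sensor of Z-form nucleic acid that can start necroptosis, read 157, 158 and 107 in brown preadipocytes and at most 42.4 elsewhere, with the adipocyte groups overlapping and differing by 0.049 (adjusted p = 0.911). Its white rise of 0.86 (adjusted p = 0.04) failed without any 1 white preadipocyte array, white adipocyte replicate 1 or 2, or brown preadipocyte replicate 1 or 2 (adjusted p = 0.0503 to 0.141).

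The immunity-related GTPases attack the membranes of vacuoles that hold intracellular parasites, and they respond most to interferon-γ. Iigp1 read 56.8, 47.2 and 47.0 in white preadipocytes, 262, 182 and 236 in white adipocytes, 5061, 4484 and 4149.7 in brown preadipocytes and 662, 587 and 570.5 in brown adipocytes. The groups did not overlap. It rose by 1.86 (SE 0.131, adjusted p = 5.86e-07) in the white line and fell by 2.88 in the brown line (adjusted p = 3.36e-08), so that the difference in change was −4.74.

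Igtp and Irgm2, direct neighbours in the genome, had closely similar patterns. Igtp read 135, 93.6 and 109, then 271, 274 and 417 in the white line and 2495, 2723 and 2280.0, then 714, 748 and 632 in the brown line. Irgm2 read 53.4, 56.3 and 17.6, then 235, 155 and 207 in the white line and 3258, 2494 and 2595, then 483, 479 and 332 in the brown line. In both genes the 4 groups did not overlap, with brown preadipocytes highest and white preadipocytes lowest. The white rises were 1.37 (adjusted p = 4.62e-05) and 1.94 (adjusted p = 0.000172), and the adipocyte differences 1.11 (adjusted p = 0.000247) and 1.05 (adjusted p = 0.0094).

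Irgm1, a regulatory member of the family, behaved otherwise outside the brown preadipocytes. It read 2508, 2237 and 1973 there and between 326 and 423 on the other 9 arrays. The white change was −0.076 (adjusted p = 0.571), or −0.34 with hybridization-control scaling (adjusted p = 0.0294), and the adipocyte difference −0.00097 (adjusted p = 0.995), with an SE of 0.108. The brown change was −2.53 (SE 0.108, adjusted p = 2.18e-08).

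The guanylate-binding proteins coat pathogen vacuoles and bacteria. Gbp2 had the largest white rise of the tested members. It read 71.4, 47.4 and 46.2 in white preadipocytes and 1409, 1253 and 1359.5 in white adipocytes. In the brown line it read 1222, 1059.8 and 943 before and 1805, 1699 and 1573 after differentiation. White preadipocytes were low, the other groups were high, brown adipocytes were highest, and no groups overlapped. It rose by 4.27 (SE 0.139, adjusted p = 2.11e-09) in the white line and by 0.65 (SE 0.139, adjusted p = 0.00226) in the brown line, and its second probe set gave 3.91 and 0.66. The adipocytes differed by 0.33 (adjusted p = 0.0631), a difference that passed with a replicate block. It also passed without white preadipocyte replicate 1 (adjusted p = 0.0177), where its value is the same and the spread is smaller.

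Gbp3, separated from Gbp2 by 1 protein-coding gene, read 11.5, 37.4 and 24.6, then 271, 342 and 248 in the white line and 3181, 2338 and 2987, then 1442, 1341 and 1273 in the brown line. The 4 groups did not overlap. It rose by 2.94 (SE 0.222, adjusted p = 9.81e-07) in the white line and fell by 1.05 in the brown line (adjusted p = 0.00215). Brown adipocytes kept 47.7% of the brown preadipocyte signal and exceeded white adipocytes by 2.18 (SE 0.222, adjusted p = 1.15e-05). Of the 6 GTPases, 5 rose and 1 did not pass over white differentiation (30.1% of all tested genes rose), 5 fell and 1 rose over brown differentiation (31.6% and 27.2%), and 4 were higher in brown than in white adipocytes (30.1%).

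Parp9 and Dtx3l form an enzyme complex that joins ADP-ribosylation with ubiquitin transfer, and Parp14 is a related mono-ADP-ribosyl transferase. The 3 genes lie side by side. Parp9 read 377, 429 and 407, then 1369.6, 1404 and 1448 in the white line and 3308, 3026 and 2578, then 1087, 1034 and 1038 in the brown line. Dtx3l read 220.1, 206 and 208, then 686, 622 and 582 in the white line and 1771, 1607 and 1440.2, then 702, 785 and 734 in the brown line. White adipocytes exceeded brown ones in Parp9 without overlap, and were below them in Dtx3l.

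The white rises of Parp9 and Dtx3l were 1.76 (SE 0.0901, adjusted p = 5.19e-08) and 1.5 (SE 0.0901, adjusted p = 1.67e-07). Between the adipocytes Parp9 differed by −0.41 (adjusted p = 0.00252), or −0.26 with hybridization-control scaling (adjusted p = 0.0534). Dtx3l differed by 0.23 (adjusted p = 0.049), at the edge of the threshold: leaving out any 1 array other than brown preadipocyte replicates 1 and 3 and white adipocyte replicate 1 ended that call (adjusted p = 0.0517 to 0.158), as did equal medians (0.099) and quantile normalization (0.12). Parp14 had 43.6 to 79.6 in white preadipocytes, 84.5 to 106 in white adipocytes, 925 to 1165 in brown preadipocytes and 242 to 279.9 in brown adipocytes. It rose in the white line by 0.58 (adjusted p = 0.0103), a call lost with hybridization-control scaling (0.35, adjusted p = 0.116), and differed between adipocytes by 1.30 (adjusted p = 5.69e-05).

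Ifi35, a leucine-zipper protein that binds Nmi, read 9952, 9581 and 9646 in brown preadipocytes and 4326, 4430.5 and 4285 in brown adipocytes, with 1581, 1781 and 1412 and 1927, 2155 and 2091 in the white line. Every brown array lay above every white array, by 2.61 (SE 0.0837, adjusted p = 5e-09) between preadipocytes and 1.07 (SE 0.0837, adjusted p = 1.56e-06) between adipocytes. The probe set used is of a less specific design, and without such probe sets the white rise of 0.37 (adjusted p = 0.00282) became −0.0035 (adjusted p = 0.988), while it was 0.095 with hybridization-control scaling. Lgals3bp, a secreted glycoprotein that binds galectins, read 338, 360.2 and 265 in white preadipocytes, 803, 779 and 772 in white adipocytes, 3859.8, 3524 and 2858 in brown preadipocytes and 926, 1061 and 885 in brown adipocytes. It rose by 1.26 (SE 0.134, adjusted p = 1.4e-05) in the white line and changed by −1.81 (SE 0.134, adjusted p = 1.13e-06) in the brown line.

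Several members had more than 1 probe set, which gives a reading that the choice of the brightest one did not use. For 13 members there were 17 further probe sets, of which 16 passed the filter on low signal. They had the sign of the probe set used in 16 of 16 cases for the preadipocyte difference and in 16 of 16 for the brown change. That of Parp14 and 1 of those of Dhx58 passed through the brown preadipocyte arrays alone. Their agreement in both comparisons followed from the filter. Those of Cmpk2 and Rtp4 and the other one of Dhx58 were above the 40th percentile on only 4 or 5 of the 12 arrays. For the white change the sign was shared in 8 of 13 cases where the member was called. The opposite signs were those of Cmpk2 (−0.37), Dhx58 (−0.60), Ifi35 (−0.0035), Parp14 (−0.030) and Trim25 (−0.42). Between adipocytes it was shared in 11 of 12, Dhx58 (−0.029) being the other. A shared sign did not mean a like size. Between preadipocytes the further probe sets had 1.16 against 5.01 in Xaf1, and 2.81 and 0.93 against 6.04 in Dhx58. They had 1.83 against 4.35 in Cmpk2 and 3.53 against 6.25 in Rtp4. Those of Iigp1, Ifi35 and Trim25, and 1 of those of Rsad2, had larger values than the probe set used.

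Promoters of the members were searched for the sequences through which interferon acts, a property that the list of symbols did not use. RefSeq promoters of GRCm38.p6, from 250 bases before to 50 after the start of the gene, were at hand for 27 of the 37 members. The core of the interferon-stimulated response element, GAAA and GAAA with 2 bases of any kind between them, on either strand, lay in 14 of the 27, or 51.9% (exact 95% binomial interval 31.9% to 71.3%). It lay in 1079 of 27025 promoters of all genes, or 3.99%. Within the 150 bases before the start the shares were 11 of 27 (40.7%) and 1.85%. The core of the gamma-activated site, TTC and GAA with 3 bases of any kind between them, which reads alike on both strands, lay in 8 of 27 (29.6%) against 9.55% of all promoters. A match of letters is not evidence of binding, and the interval covers counting error only.

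Stretches upstream of the start are printed 5′ to 3′ on the strand of the gene for 7 members that show the patterns described above, with matches to either core in capitals. Ifit1, on the plus strand at chr19:34640774-34640833, has 2 copies of the response element core as its reverse complement; Rsad2 is on the minus strand at chr12:26456533-26456592. The neighbours Igtp (chr11:58199486-58199545) and Irgm2 (chr11:58214877-58214936), both on the plus strand, each have a gamma-activated core followed by a response element core. Gbp3 (chr3:142559974-142560033) and Gbp2 (chr3:142620583-142620642) are on the plus strand, with overlapping matches in Gbp3. Irf1 (chr11:53769894-53769953), on the plus strand, has a gamma-activated core and no response element core in the window.
Ifit1: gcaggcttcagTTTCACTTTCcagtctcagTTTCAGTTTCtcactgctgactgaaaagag
Rsad2: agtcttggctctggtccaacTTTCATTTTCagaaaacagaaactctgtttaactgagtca
Igtp: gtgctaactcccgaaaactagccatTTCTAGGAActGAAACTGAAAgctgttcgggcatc
Irgm2: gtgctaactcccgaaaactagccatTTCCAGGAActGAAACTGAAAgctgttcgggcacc
Gbp3: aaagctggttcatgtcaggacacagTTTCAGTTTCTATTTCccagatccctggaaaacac
Gbp2: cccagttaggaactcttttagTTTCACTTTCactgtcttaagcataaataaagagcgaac
Irf1: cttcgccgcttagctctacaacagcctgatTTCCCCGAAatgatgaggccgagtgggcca

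The stretches of Igtp and Irgm2 were identical at 58 of 60 bases, and they differed by T29C, in the gamma-activated core, and T59C, counted from 1 at the 5′ end with the base of Igtp first. These genes, with nearly the same upstream stretch, had preadipocyte differences of 4.30 and 5.65 (SE 0.171 and 0.289) and brown changes of −1.82 and −2.65 (SE 0.171 and 0.289). Over the 14 members with the response element core the median preadipocyte difference was 4.20, against 2.97 over the 13 with a promoter and no match. For the brown change the medians were −1.99 and −2.05. Gbp2 and Gbp3 both carry the core within 60 bases of the start and changed in opposite directions in the brown line. These are descriptions of small sets, with no test.

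The 3 brown preadipocyte arrays were not equal in these genes. Replicate 1 had the highest signal of the 3 in 33 of 36 tested members, or 91.7%, and in 33.4% of all tested genes. The exceptions were Irf1, Zbp1 and Igtp. The ratio of replicate 1 to replicate 3 had a median of 1.27 over tested members and 1.02 over all tested genes. Mx2, for example, read 354, 198 and 224, and Lgals3bp 3859.8, 3524 and 2858. Without replicate 1 the median preadipocyte difference of the members was 3.39 in place of 3.58, and the median brown change −2.07 in place of −2.16.

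**Figure D5:**
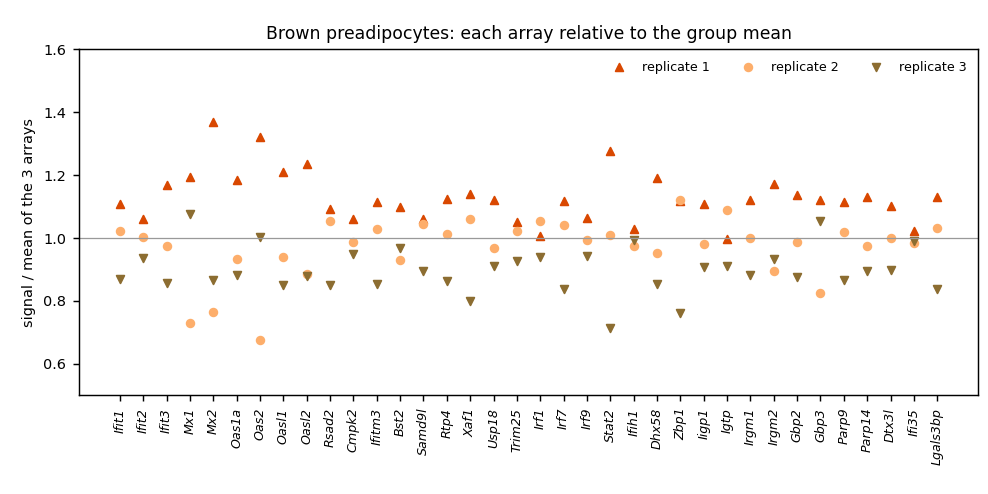
Signal of each tested interferon-stimulated gene on the 3 brown preadipocyte arrays, divided by the mean of the 3, on a linear axis. Replicate 1 (upward triangles) is the highest array in 33 of 36 genes, and replicate 3 (downward triangles) is the highest in 0.

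The ligands of the pathway were mostly at or under the limit of the arrays. Of 12 listed interferon genes, 8 had a probe set and 3 were tested. Interferon-β (Ifnb1) read 17.3, 54.9 and 8.52 in brown preadipocytes, 55.2, 25.3 and 42.2 in white preadipocytes, 58.9, 6.94 and 19.1 in white adipocytes and 48.9, 72.0 and 47.5 in brown adipocytes, with the groups overlapping, and it passed in none of the 5 comparisons. Ifna1 read 48.4, 59.0 and 41.4 in brown and 9.42, 19.2 and 3.45 in white preadipocytes. The difference was 1.33 (SE 0.443, adjusted p = 0.0267) between groups that did not overlap, or at least 1.47-fold since the white arrays were dim. The limits for a dim signal on the brown preadipocyte arrays were 40.1, 40.8 and 37.0. Brown adipocytes read 2.74, 3.17 and 53.1, and their replicate 3 was the only array outside brown preadipocytes where Ifna1 was not dim. Ifna1 thus had too few such arrays to be tested without its brown preadipocyte arrays, and its place among tested genes followed from the filter. Ifnz was higher in brown preadipocytes, at 344, 403 and 452 against 292, 254 and 239, by 0.58 (SE 0.115, adjusted p = 0.00161). Interferon-γ (Ifng) was dim on all 12 arrays.

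Of the 6 receptor chains, all but Ifnlr1 were present in both lines. Ifnlr1 was dim in white preadipocytes and in white adipocytes. Each of the 6 chains was higher in brown than in white preadipocytes (31.3% of all tested genes). Ifnlr1 passed the filter on low signal through its brown preadipocyte arrays alone. Its place in this count, and in the count of brown falls below, followed from the filter. For the type I receptor the differences were 1.25 (SE 0.0773, adjusted p = 4.54e-07) in Ifnar1 (signals 1007, 1061 and 956 against 460.3, 408 and 379) and 1.34 (SE 0.0894, adjusted p = 7.95e-07) in Ifnar2 (signals 2706, 2523 and 2257 against 885, 1008 and 1042). The groups did not overlap in either chain. The chains of the interferon-γ receptor differed by 0.74 (Ifngr1) and 0.89 (Ifngr2), and those of the interferon-λ receptor by 1.31 (Ifnlr1, dim outside brown preadipocytes and so at least 1.61-fold) and 0.40 (Il10rb). Over brown differentiation 3 of the 6 fell and 2 rose (31.6% and 27.2% of all tested genes), with Ifnar1 at −0.27 (adjusted p = 0.0126) and Ifnar2 at −0.52 (adjusted p = 0.000527), while Ifnar2 rose in the white line by 1.06 (SE 0.0894, adjusted p = 2.38e-06).

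Among kinases and signal transducers, 4 genes were tested. Between preadipocytes, where 31.3% of all tested genes were higher and 23.8% lower in the brown line, 1 was higher in the brown line, Stat3 at 0.90 (adjusted p = 6.22e-06), and 1 was lower, Tyk2 at −0.41 (adjusted p = 0.017). Of 4 tested interferon regulatory factors outside the list, 2 were higher and 1 lower in brown preadipocytes. Irf3, the factor activated by sensors of viral RNA, was higher there by 0.51 (adjusted p = 0.000474) and rose over brown differentiation by 0.32 (adjusted p = 0.00787). Irf4 rose in the brown line by 1.92 (SE 0.261, adjusted p = 0.000105), from 53.9, 43.4 and 29.2 to 308, 136 and 189.9.

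Of 15 listed genes of nucleic acid sensing 8 were tested, of which 4 were higher and 3 lower in brown preadipocytes (31.3% and 23.8% of all tested genes). Ddx58, or RIG-I, was higher there by 2.17 (SE 0.118, adjusted p = 1.82e-07) and Eif2ak2, the kinase PKR, by 1.32 (SE 0.0821, adjusted p = 4.75e-07). Over brown differentiation 4 of the 8 fell and 2 rose (31.6% and 27.2%), with −2.02 (adjusted p = 2.04e-07) for Ddx58. Of the 8 tested negative regulators, 5 fell in the white line and 6 in the brown line (31.2% and 31.6% of all tested genes). The feedback inhibitor Socs1 fell in both, by 1.30 (adjusted p = 0.00747) and 1.81 (adjusted p = 0.0011; at least 1.99-fold, being dim in brown adipocytes), and Samhd1, which depletes nucleotides and limits interferon production, fell by 1.55 and 1.74 (adjusted p = 1.43e-07 and 8.66e-08).

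A list of 42 further interferon-stimulated genes gave 36 tested genes. Of these, 25 were higher and 1 lower in brown than in white preadipocytes, against 31.3% and 23.8% of all tested genes, with a median of 1.81 over the 36 with a probe set (0.051 over all named genes). Over brown differentiation 27 fell and 2 rose (31.6% and 27.2%), with a median of −1.13 (−0.011). In the white line 13 rose and 7 fell (30.1% and 31.2%), with a median of 0.14 (0.036), so the white rises were close to the share of all tested genes. Gbp6 was dim in white preadipocytes, at 3.98, 4.01 and 20.1, and read 1111, 1032 and 1009.7 in white adipocytes and 2223, 2084 and 1613 in brown preadipocytes. It was at least 58.5-fold higher in brown than in white preadipocytes (adjusted p = 6.98e-09) and at least 31.4-fold higher in white adipocytes than before differentiation (adjusted p = 7.4e-09). The chemokine Cxcl10 read 2411, 2336 and 2418 in brown preadipocytes and 33.0, 22.5 and 34.0 in white preadipocytes, a difference of 5.72 (SE 0.322, adjusted p = 2.34e-07). Ifi27l2a went the other way between preadipocytes, at −1.52 (SE 0.115, adjusted p = 1.86e-06), and rose on differentiation by 2.70 in the white and 2.33 in the brown line. Ifi204 changed in the brown line by −3.85 (SE 0.148, adjusted p = 1.01e-08), at least 14.2-fold since it was dim in brown adipocytes, and had −0.18 (adjusted p = 0.343) between preadipocytes, which did not pass.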

How the data were processed

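Total RNA of 12 samples of mouse fat cell lines was hybridised to Affymetrix 3′ expression arrays after biotin labelling, per the labels' protocols. The deposited values are linear signal intensity per probe set. The submitters' processing notes name Expression Console of Affymetrix as the tool, with neither a version nor an algorithm. The 2% trimmed mean of every array was 500.003 to 500.004, so the values were already scaled and were used as deposited. Depth has no meaning for arrays, and the 3 arrays per group limit the precision.

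Of 45101 probe sets, 34945 carried a single gene symbol in the platform annotation, which can be old, 932 carried several, 9160 none, and 64 were controls. The brightest probe set on average stood for each of 18193 genes. Genes above the 40th percentile of an array on at least 3 of 12 arrays were tested (13752), and 4441 were too dim. The limma package (3.58.1, R 4.3.3; lmFit and eBayes) fitted group means of log2(signal + 16), with 4 groups and 5 comparisons in 1 model, and p-values were Benjamini-Hochberg adjusted over all tested genes. A gene was called at an adjusted p under 0.05. The fit was tested on simulated data. Members and gene lists were chosen with earlier results of these data known. All members are described; of the other lists, ligands, receptors, Irf3 and up to 3 of the largest called genes of each list were to be named.

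Settings varied 1 at a time were the pseudocount (1 or 64), the scaling (to 18 hybridization-control probe sets, to equal medians, by quantiles), the filter (none, or the 60th percentile), averaging a gene's probe sets, leaving out less specific probe sets, an intensity trend, robust moderation, only the arrays compared, a threshold of 0.01, a replicate block and leaving out each array. Deviations from the group means of same-numbered arrays correlated at −0.0292 to 0.0668, so the replicate numbers were not taken to pair samples. Promoters were RefSeq sequences of GRCm38.p6, found for 27 of 37 members.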

Additional observations from a re-analysis of the deposited data

Results flagged for a closer look

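For each of the 36 tested interferon-stimulated genes the change over differentiation in the brown line differed from that in the white line. This was by a test of the difference itself (limma, adjusted over all tested genes), and it is why they are listed here. By the same test 27.5% of all tested genes were called lower and 23.6% higher. The difference, brown change minus white change on the log2 scale, is given for each. It uses 3 arrays of each line before and 3 after differentiation. Line, induction mix and harvest day cannot be told apart.

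Among the antiviral effectors it was −5.74 for Ifit1, −5.46 for Ifit3 and, with the other sign, 0.57 for Ifit2. The Mx genes had −2.67 (Mx1) and −3.39 (Mx2). The Oas family had −4.20 for Oas1a, −1.90 for Oas2, −2.63 for Oasl1 and −3.39 for Oasl2, and of these Oas2 was the one close to the threshold. Rsad2 had −2.26 and its neighbour Cmpk2 −2.87. Genes that fell in both lines had small values, −1.02 for Ifitm3 and −1.66 for Samd9l. Bst2 had −1.74, Rtp4 −3.42 and Xaf1 −3.75.

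Among regulators, Usp18 had −5.69 and Trim25 −1.29. The transcription factors ranged from −0.65 for Irf1, which had no called change in the brown line, through −2.23 for Irf9 and −2.25 for Stat2 to −3.71 for Irf7. The sensors had −3.49 (Ifih1), −4.12 (Dhx58) and −2.66 (Zbp1).

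Among the GTPases the values were −4.74 for Iigp1, −3.19 for Igtp, −2.45 for Irgm1, −4.60 for Irgm2, −3.62 for Gbp2 and −3.99 for Gbp3. In Gbp2 both changes were rises, so its value is the excess of the white rise. The ADP-ribosylation genes had −3.23 (Parp9), −2.48 (Parp14) and −2.60 (Dtx3l). Ifi35 had −1.53 and Lgals3bp −3.07.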

How the results depend on the processing

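The direction and the call of the brown change and of the preadipocyte difference changed for few members, and the white change and the adipocyte difference depended more on the setting. Over single members, 4458 values kept direction and call, 90 lost the call, 33 gained it and 38 changed sign. Depth does not limit these arrays; signals near the 40th percentile do. Replicate numbers did not pair the arrays: with a replicate block the calls were 22 higher and 3 lower (white differentiation), 1 and 34 (brown), 1 and 34 (difference in change), 22 and 3 (adipocytes) and 36 and 0 (preadipocytes). The block ended the white call of Bst2 (adjusted p = 0.0745) and the difference in change of Oas2 (0.0803), and added the adipocyte calls of Gbp2 (0.0178) and Lgals3bp (0.0421). No cause of a change with a setting was tested.

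Scaling to the hybridization controls moved the median of all tested genes by −0.25 in white and −0.19 in brown differentiation and by 0.13 between adipocytes. Equal medians moved it by −0.11 in white differentiation, 0.13 in the difference in change, −0.12 between adipocytes and −0.25 between preadipocytes. With hybridization controls, upward calls were 34.3% of calls for white (49.1% as deposited), 31.9% for brown (46.2%) and 60.6% for adipocytes (50.5%), and with equal medians 35.5% for preadipocytes (56.8%). With hybridization controls members called lower were 5 in white differentiation and 1 between adipocytes, and members with a higher change in the brown line were 0 with quantile normalization and at a threshold of 0.01.

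The median of the members for white differentiation was 0.37 with a pseudocount of 64 and 0.40 with hybridization controls. For brown differentiation it was −2.27 (pseudocount 1), −1.80 (pseudocount 64) and −2.37 (hybridization controls). The difference in change had −3.33 and −2.32 with these pseudocounts. The preadipocyte median was 4.11 and 2.87 with them, 3.44 with quantile normalization, 3.44 with equal medians and 3.72 with hybridization controls. Leaving out 1 array gave −2.26 to −2.07 (brown), −3.11 to −2.68 (difference) and 3.22 to 3.79 (preadipocytes), and 3 to 5 members lower, 20 to 23 higher in white differentiation.

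Signs turned mostly in members that were not called; Bst2 and Ifi35 were called in white differentiation (adjusted p = 0.0428 and 0.00282). In white differentiation Mx2 was −0.010 (quantile), −0.00056 (equal medians) and −0.048 (hybridization controls), and with the latter Oasl2 was −0.011, Bst2 −0.021 and Irf9 −0.080. Ifi35 was −0.0035 without less specific probe sets. Between adipocytes, hybridization controls gave 0.024 for Oas2 and 0.15 for Irgm1. Equal medians gave −0.10 for Trim25, −0.076 for Irf7, −0.088 for Stat2 and −0.024 for Zbp1. Quantile normalization gave −0.12 for Irf7 and −0.058 for Stat2, and the mean of probe sets −0.055 for Zbp1. Leaving out 1 array gave, in white differentiation, −0.48 to 0.15 (Mx1), −0.063 to 0.15 (Mx2), −0.16 to 0.96 (Oas1a), −0.22 to 0.35 (Oasl2) and −0.13 to 0.018 (Irgm1). Between adipocytes it gave −0.42 to 0.39 (Oas2), −0.10 to 0.19 (Irf7), −0.084 to 0.11 (Stat2), −0.34 to 0.31 (Zbp1) and −0.096 to 0.048 (Irgm1).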
